A study of Mus musculus with 12 samples.

Results

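The interferon regulatory factors Irf1, Irf2, Irf3, Irf5, Irf7, Irf8 and Irf9 and the signal transducers Stat2 and Stat3 were followed in mouse leukemic cells. The 9 genes were taken by symbol from the 24589 genes of the deposited table, and all 9 passed the filter of at least 1 TPM in at least 2 libraries. TPM gives each gene as a share of all transcripts in its library, corrected for gene length. The cells were NRAS/AE9a cells, labelled AML cells, which by their name carry an NRAS oncogene and the leukemic fusion AML1-ETO9a. They were Tet2-null (KO) or wild type for Tet2 (WT), TET2 being an enzyme that oxidises 5-methylcytosine, and every group was grown with SCF, IL-3, IL-6, G418 and puromycin. Each genotype was sampled at 0, 4 and 8 h of actinomycin D at 5 µg/ml, a drug that blocks transcription, with 2 libraries in each of the 6 groups. Since 1 line of each genotype is named, the deletion cannot be told apart from other differences between the KO and WT cells. Whether the libraries of a group are separate cultures is not stated, so p-values here reflect library-to-library spread alone, and that spread may be technical.

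IRFs are transcription factors that bind GAAA repeats. IRF3, IRF5 and IRF7 are activated downstream of nucleic acid sensors and Toll-like receptors and switch on interferon and cytokine genes. Interferon then acts through JAK kinases on STAT proteins, and STAT2 joins IRF9 in the complex ISGF3, which raises interferon-stimulated genes, Irf7 among them. IRF8 directs myeloid progenitors towards monocytes and dendritic cells, and STAT3 transmits IL-6 and related cytokines, one of which was in the medium of all groups.

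Promoter windows are shown first for Irf7, Stat2 and Irf2, which were lower in KO cells at 0 h and differ in the motifs they hold. They run from 250 bases before to 50 bases after the RefSeq start on GRCm38.p6, and are written along the gene's strand. RefSeq starts can differ from the GENCODE positions given further below. The Stat2 window ends at 128270547, before the GENCODE start of 128270559. The first Irf9 window begins at 55603735, after the GENCODE start of 55603571. All 9 genes had a window, 12 in all. Capitals mark matches on either strand to the interferon-stimulated response element (ISRE), searched as GAAA, any 2 bases and GAAA again, and to the gamma-activated site (GAS), searched as TTCNNNGAA. No match overlapped another.
Irf7, chr7:141266375-141266674, minus strand: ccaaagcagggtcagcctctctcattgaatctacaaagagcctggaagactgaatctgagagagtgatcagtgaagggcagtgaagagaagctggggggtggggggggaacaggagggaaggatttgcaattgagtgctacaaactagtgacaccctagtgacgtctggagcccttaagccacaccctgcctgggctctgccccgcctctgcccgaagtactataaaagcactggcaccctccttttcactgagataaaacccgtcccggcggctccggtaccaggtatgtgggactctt
Stat2, chr10:128270248-128270547, plus strand: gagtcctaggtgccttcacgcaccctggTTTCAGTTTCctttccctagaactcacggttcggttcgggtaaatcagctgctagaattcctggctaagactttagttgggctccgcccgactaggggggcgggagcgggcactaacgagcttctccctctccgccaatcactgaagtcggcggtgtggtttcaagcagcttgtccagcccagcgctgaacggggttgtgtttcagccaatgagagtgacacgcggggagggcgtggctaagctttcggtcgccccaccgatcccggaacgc
Irf2, chr8:46739495-46739794, plus strand: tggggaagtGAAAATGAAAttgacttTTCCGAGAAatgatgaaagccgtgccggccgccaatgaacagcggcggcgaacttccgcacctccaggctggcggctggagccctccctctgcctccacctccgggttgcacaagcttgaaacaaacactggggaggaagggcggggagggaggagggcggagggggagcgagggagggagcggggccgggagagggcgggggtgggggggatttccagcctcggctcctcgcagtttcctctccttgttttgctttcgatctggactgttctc
The Irf2 window held an ISRE match that begins 241 bases before the start and a GAS match that begins 224 bases before it. The Stat2 window held an ISRE match that begins 222 bases before its start, on the opposite strand. The Irf7 window held neither pattern. Windows of Irf3, Irf5, Irf9 and Stat3 also held neither, and the GAS matches of Irf1 and Irf8 are shown with 10 bases on each side.
Irf1, 90 bases before the start: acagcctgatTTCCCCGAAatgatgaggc
Irf8, 171 bases before the start: caaaagtgatTTCTCGGAAagagagcgct
Irf8, 153 bases before the start: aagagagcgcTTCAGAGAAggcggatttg
Thus 2 of the 12 windows held an ISRE match and 3 of the 12 held a GAS match, while 3.44% and 8.3% of 32851 RefSeq windows of the same length held them. A match is a description of these letters and not evidence of binding.

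The libraries had 9093 to 10827 genes at 1 TPM or more, and sequencing depth is unknown. Pearson r across genes was 0.991 to 0.994 within groups and at most 0.974 between groups. Tet2 mRNA averaged 10.2 TPM in KO and 14.5 TPM in WT cells at 0 h, a difference of -0.47 ± 0.13 on the log2 scale (SE, n = 2 each, limma adjusted p = 0.0167), and a gene-level TPM checks the knockout label only weakly. All 15 myeloid and progenitor markers were tested. Their summed level at 0 h was 10656.57 to 10892.05 TPM in KO libraries, against 23610.24 to 26740.17 TPM in WT libraries, mostly from the lysozyme gene Lyz2. T and NK cell markers summed to at most 0.68 TPM, with Cd3d, Cd3g and Ncr1 at 0 in every library, and B cell markers to at most 2.03 TPM, with Pax5 and Ebf1 at 0. Erythroid markers summed to at most 9.86 TPM. Stromal and endothelial markers summed to 160.47 to 162.58 TPM in KO and 131.83 to 158.57 TPM in WT libraries at 0 h. Nearly all of that was Pecam1, with 158 and 159 TPM in KO libraries and 130 and 157 TPM in WT libraries. Of the 9 markers 2, Pecam1 and Pdgfrb, passed the filter.

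Before transcription was blocked, 4 of the 9 genes were lower in KO than in WT cells and none was higher, with Irf7 changed most. Irf7, Stat2, Irf9 and Irf2 passed the threshold of an adjusted p under 0.05 in limma on log2(TPM + 1), fitted over all 11152 tested genes. In this comparison 25.7% of all tested genes were called, 11.5% as lower and 14.3% as higher. The median difference of the 9 genes was -0.48, against 0.06 over all tested genes. For 7 of the 9, KO and WT libraries did not overlap, against 62.8% of all tested genes. In bulk RNA, fewer cells that express a gene and less RNA per cell cannot be told apart.

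**Figure D1:**
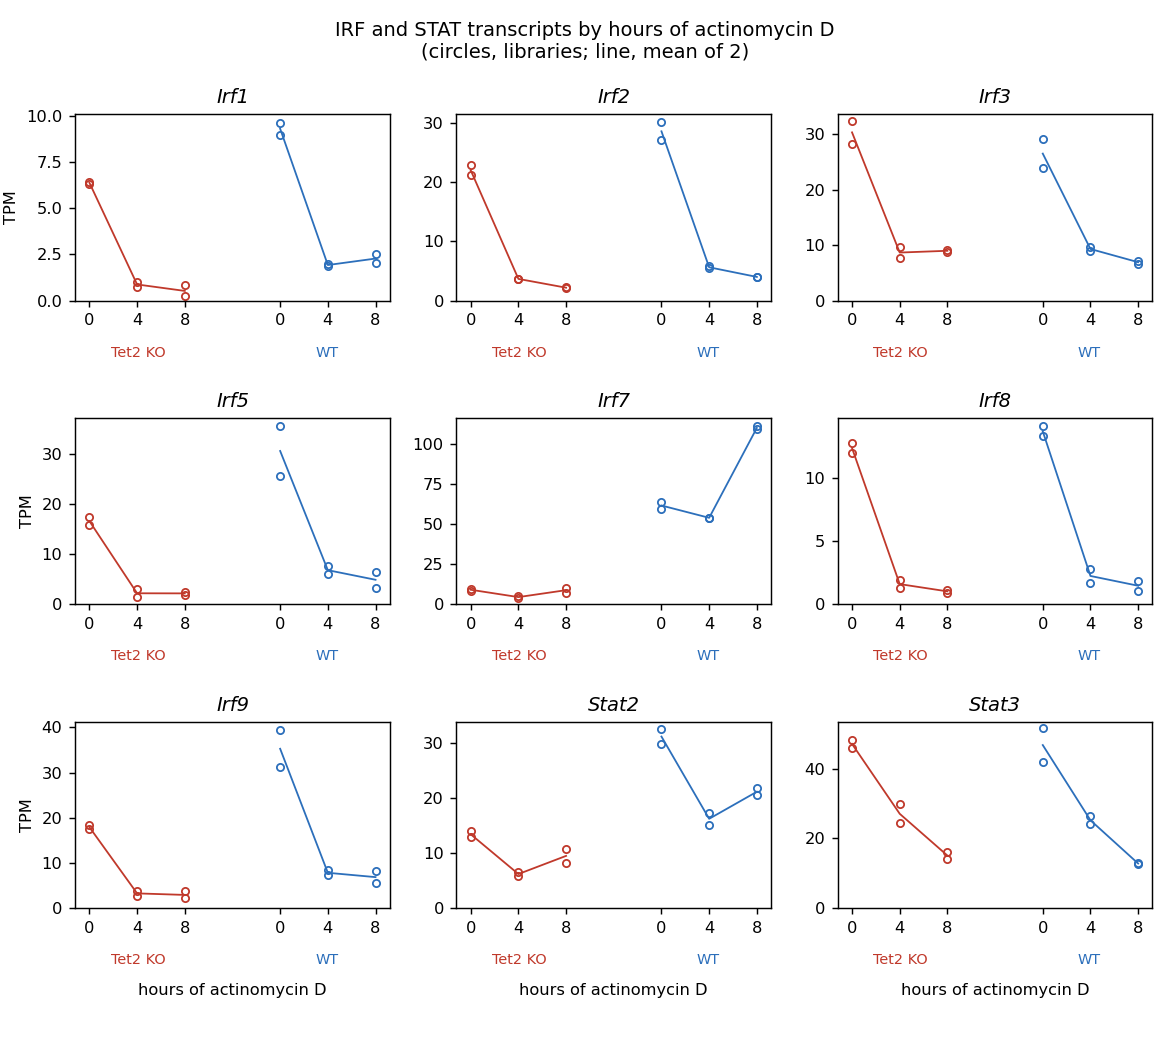
TPM of each of the 9 genes by hours of actinomycin D, with a panel per gene, KO libraries at left and WT libraries at right. Circles are libraries and lines join the means of 2. Irf7 stays at 3.98 to 10.5 TPM in the 6 KO libraries and at 54.0 to 111 TPM in the 6 WT libraries, while most other genes drop by 4 h in both genotypes.

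The interferon-inducing factors differed most among themselves. Irf7 lies on chromosome 7 from 141262706 to 141266481 on the minus strand (GRCm38, GENCODE M21) and encodes the inducible factor that amplifies type I interferon genes. At 0 h it had 8.57 and 9.79 TPM in KO libraries, against 59.9 and 63.8 TPM in WT libraries. The KO libraries were far below both WT libraries, at 14.9% of the WT mean. The difference was -2.63 ± 0.14 (SE, n = 2 each, adjusted p = 9.43e-08), which put Irf7 at percentile 0.148 of the changes of all tested genes. Irf5, on chromosome 6 from 29526625 to 29541871 on the plus strand, encodes a factor that acts behind Toll-like receptors on inflammatory cytokine genes. It had 15.8 and 17.4 TPM in KO libraries, against 25.6 and 35.4 TPM in WT libraries. Both KO libraries were lower, but the WT libraries differed widely and the difference of -0.83 ± 0.28 had an adjusted p of 0.0506. Irf5 kept its direction in all 13 alternatives and passed the threshold in 4. These were scaling to long-lived transcripts, a mean of at least 5 TPM, a replicate block, and a fit of the compared groups alone. Of the Irf5 exon bases, 14.1% overlap exons of Tnpo3 on the other strand, and the strand setting of the counting is not given in the sources used here. Irf3, on chromosome 7 from 44997648 to 45002848 on the plus strand, encodes a constitutively made factor that starts the interferon beta response. It had 32.4 and 28.3 TPM in KO libraries, against 23.9 and 29.2 TPM in WT libraries. The ranges overlapped, and the difference was 0.19 ± 0.13 (adjusted p = 0.337).

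Plasmacytoid dendritic cells are known for high IRF7, so their markers are given beside it. The 7 markers summed to 241.9 to 253.27 TPM in KO libraries and 469.54 to 518.87 TPM in WT libraries at 0 h. Almost all of it was Bst2, which is also an interferon-stimulated gene. Besides Bst2 only Tcf4 passed the filter. Tcf4 had 3.87 and 4.17 TPM in KO libraries at 0 h, against 3.74 and 4.08 TPM in WT libraries, so its groups overlapped. Ly6d was at 0 in every library, and Siglech and Ccr9 reached at most 0.03 and 0.25 TPM. The summed level of the listed myeloid markers, mostly Lyz2, moved in the same direction as Irf7, Stat2 and Irf9 at 0 h. Marker by marker the directions were mixed, with 10 of the 15 lower in KO cells and 4 higher. Of all tested genes 11.5% were lower and 14.3% higher. The part of these markers in the results was not tested.

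Both ISGF3 subunits among the 9 genes fell in KO cells at 0 h. Stat2, on chromosome 10 from 128270559 to 128292849 on the plus strand, encodes the subunit that activates transcription. It had 12.9 and 14.0 TPM in KO libraries, against 29.9 and 32.6 TPM in WT libraries. The groups were well apart, with the KO mean at 43.1% of the WT mean and a difference of -1.16 ± 0.13 (adjusted p = 4.88e-05). Irf9, on chromosome 14 from 55603571 to 55610030 on the plus strand, encodes the DNA-binding subunit. It had 17.6 and 18.3 TPM in KO libraries, against 31.1 and 39.4 TPM in WT libraries. The KO libraries were below both WT libraries, at 50.9% of the WT mean, with a difference of -0.93 ± 0.22 (adjusted p = 0.00737). Without WT replicate 2 at 0 h, the higher of the WT libraries, the Irf9 difference was -0.76 with an adjusted p of 0.0744.

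Irf1 and Irf2 encode an activator and its classical antagonist at shared sites. Irf2, on chromosome 8 from 46739732 to 46847458 on the plus strand, had 22.8 and 21.1 TPM in KO libraries at 0 h, against 27.0 and 30.0 TPM in WT libraries. Both KO libraries were lower, by -0.36 ± 0.12 (adjusted p = 0.037). The Irf2 call was lost with a pseudocount of 0.1 or 0.5, without WT replicate 2 and without either KO library, where the adjusted p reached 0.249. Irf1, on chromosome 11 from 53770014 to 53778374 on the plus strand, had 6.44 and 6.31 TPM in KO libraries, against 8.97 and 9.62 TPM in WT libraries. The groups did not overlap, but the difference of -0.48 ± 0.18 missed the threshold (adjusted p = 0.0742).

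Neither the lineage factor Irf8 nor the cytokine transducer Stat3 passed the threshold at 0 h. Irf8, on chromosome 8 from 120736358 to 120756694 on the plus strand, had 12.01 and 12.75 TPM in KO libraries, against 13.3 and 14.1 TPM in WT libraries. The KO libraries were slightly lower without overlap, and the difference was -0.14 ± 0.20 (adjusted p = 0.675). Stat3, on chromosome 11 from 100885098 to 100939540 on the minus strand, had 48.2 and 45.9 TPM in KO libraries, against 42.0 and 51.5 TPM in WT libraries. The KO values lay inside the WT range, with a difference of 0.02 ± 0.12 (adjusted p = 0.945). A p above the threshold does not show that these levels were equal.

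**Figure D2:**
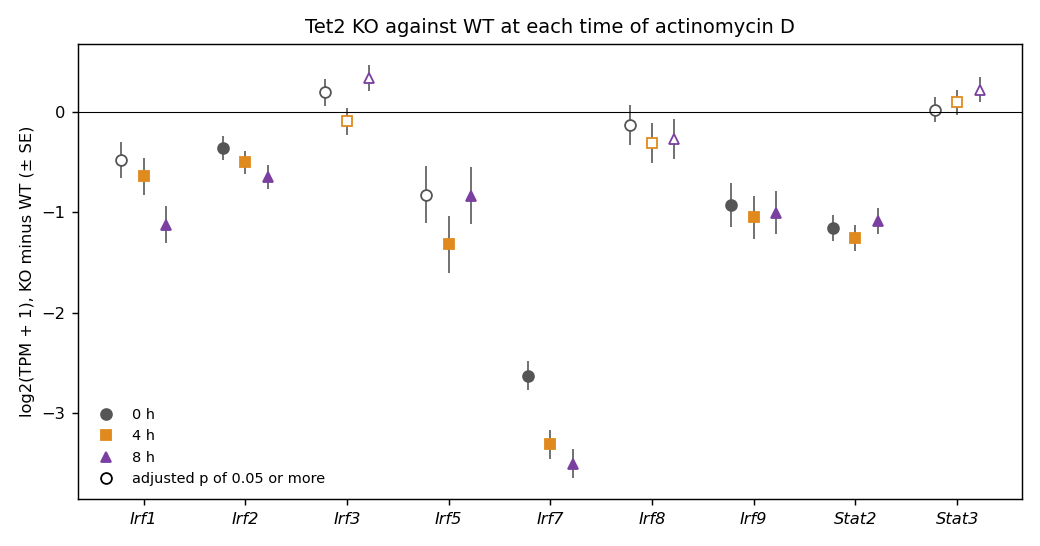
KO minus WT difference in log2(TPM + 1) for each of the 9 genes at 0, 4 and 8 h, with standard errors and open symbols for an adjusted p of 0.05 or more. Irf7 lies at -2.63, -3.31 and -3.50, and Stat2 and Irf9 lie near -1 at each time, while Stat3 lies between 0.02 and 0.22.

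The order of the 9 genes by TPM, a level per length, differed between genotypes, given here as a description. In KO cells at 0 h Stat3 was highest at a mean of 47.0 TPM, followed by Irf3, Irf2, Irf9, Irf5, Stat2, Irf8, Irf7 and Irf1, and no neighbours in this order overlapped. In WT cells Irf7 was highest at 61.8 TPM, followed by Stat3, Irf9, Stat2, Irf5, Irf2, Irf3, Irf8 and Irf1. Neighbours between Irf9 and Irf3 in the WT order overlapped in their libraries. Irf7 was thus eighth in KO and first in WT cells.

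The genotypes were next compared after transcription had been blocked. At 4 h, 6 of the 9 genes were lower in KO cells and none was higher, where 38.6% of all tested genes were called, 13.7% as lower and 24.9% as higher. Libraries of the genotypes did not overlap for 6 of the 9, against 73.2% of all tested genes. The median difference was -0.64 for the 9 genes and 0.10 over all tested genes. Irf7 had 3.98 and 5.21 TPM in KO libraries, against 54.0 and 54.3 TPM in WT libraries, and no other member was so far apart (-3.31 ± 0.14, limma adjusted p = 1.56e-08). Stat2 had 6.67 and 5.78 TPM in KO libraries, against 17.3 and 15.2 TPM in WT libraries (-1.26 ± 0.13, adjusted p = 2.1e-05). Irf9 had 3.84 and 2.74 TPM in KO libraries, against 8.40 and 7.28 TPM in WT libraries (-1.05 ± 0.22, adjusted p = 0.00252). The KO libraries of all 3 genes were below both WT libraries. Irf5 had 1.40 and 3.04 TPM in KO libraries, against 5.97 and 7.66 TPM in WT libraries, again without overlap (-1.32 ± 0.28, adjusted p = 0.00332). Irf2 had 3.65 and 3.67 TPM in KO libraries, against 5.42 and 5.82 TPM in WT libraries (-0.51 ± 0.12, adjusted p = 0.0047). Irf1 had 1.01 and 0.74 TPM in KO libraries, against 1.86 and 1.99 TPM in WT libraries (-0.64 ± 0.18, adjusted p = 0.0148). Its call was lost without either WT library and without KO replicate 2 at 4 h, with adjusted p up to 0.10. For Irf3, Irf8 and Stat3 the libraries of the genotypes overlapped and the adjusted p were 0.594, 0.243 and 0.583.

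At 8 h the same number, 6 of 9, was lower in KO cells and none was higher, where 49.4% of all tested genes were called, 12.1% as lower and 37.3% as higher. Libraries of the genotypes did not overlap for 8 of the 9, against 70.5% of all tested genes. The median difference was -0.84 for the 9 genes and 0.20 over all tested genes. Irf7 had 7.39 and 10.5 TPM in KO libraries, against 111 and 109 TPM in WT libraries, which put the KO mean at 8.1% of the WT mean (-3.50 ± 0.14, limma adjusted p = 5.34e-09). Stat2 had 8.27 and 10.8 TPM in KO libraries, against 20.6 and 21.8 TPM in WT libraries (-1.09 ± 0.13, adjusted p = 2.46e-05). Irf9 had 3.73 and 2.17 TPM in KO libraries, against 5.53 and 8.24 TPM in WT libraries (-1.0 ± 0.22, adjusted p = 0.00206). These differences were without overlap of libraries. Irf1 had 0.82 and 0.23 TPM in KO libraries, against 2.51 and 2.04 TPM in WT libraries (-1.13 ± 0.18, adjusted p = 0.000252). Irf2 had 2.26 and 2.10 TPM in KO libraries, against 3.94 and 4.05 TPM in WT libraries (-0.65 ± 0.12, adjusted p = 0.000513). At such low levels the pseudocount of 1 understates a fold, as for Irf1, whose KO mean was 23.1% of the WT mean. Irf5 had 2.57 and 1.83 TPM in KO libraries, against 3.29 and 6.52 TPM in WT libraries, with unlike WT libraries (-0.84 ± 0.28, adjusted p = 0.0275). The Irf5 call was lost without WT replicate 2 (-0.43, adjusted p = 0.255) and in 3 other alternatives. Irf3 had 8.83 and 9.16 TPM in KO libraries, against 6.67 and 7.20 TPM in WT libraries. Both KO libraries of Irf3 were higher, with a difference of 0.33 ± 0.13 and an adjusted p of 0.0546. It passed the threshold with a pseudocount of 0.1 and with a mean of at least 5 TPM, and was -0.0080 (adjusted p = 0.967) with scaling to long-lived transcripts. Of the 10 genes behind that scaling, 9 were themselves higher and 1 lower in KO cells at 8 h. Scaling to them shifts KO against WT estimates down. Irf8 and Stat3 differed by -0.27 and 0.22 (adjusted p = 0.287 and 0.168).

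Changes over time are relative, since TPM sums to the same total in every library and no added RNA standard is named. A transcript that is lost more slowly than the others gains TPM. In KO cells all 9 genes fell by 4 h, where 72.8% of all tested genes were called, 68% as lower and 4.88% as higher, and the median change was -1.98 for the 9 genes and -0.70 over all. At 8 h 8 of the 9 were below 0 h in KO cells and none was above, where 84.9% of all tested genes were called, 75.4% as lower and 9.54% as higher, and the median change was -2.29 for the 9 genes and -1.16 over all. In WT cells 8 of the 9 fell by 4 h, where 77.8% of all tested genes were called, 71% as lower and 6.77% as higher, and the median change was -1.82 for the 9 genes and -0.81 over all. At 8 h 8 were below 0 h in WT cells and Irf7 was above, where 88.7% of all tested genes were called, 80.2% as lower and 8.48% as higher, and the medians were closer, at -1.79 for the 9 genes and -1.40 over all. The libraries of the 2 times did not overlap for 9 of the 9 genes in KO cells at 4 h, where 87.5% of all tested genes did not, and for 8 of the 9 at 8 h, where 92% did not. In WT cells they did not overlap for 9 of the 9 at 4 h, where 86.8% of all tested genes did not, and for 9 of the 9 at 8 h, where 92.5% did not.

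**Figure D3:**
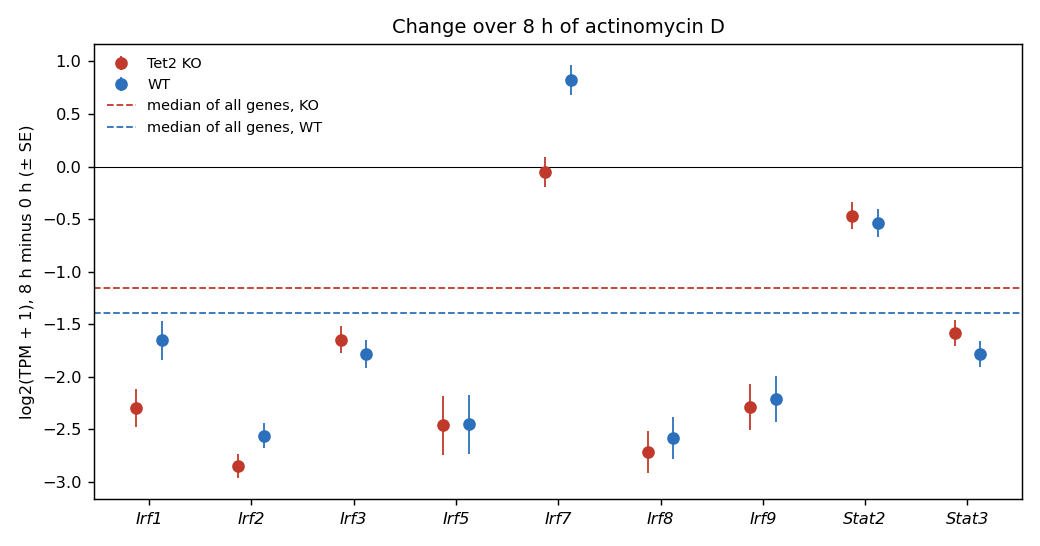
Change in log2(TPM + 1) over 8 h of actinomycin D for each of the 9 genes, KO left of WT, with standard errors. Dashed lines are the medians over all tested genes, -1.16 in KO and -1.40 in WT cells. Irf7 and Stat2 lie above these medians in both genotypes, and Irf2, Irf5, Irf8 and Irf9 lie well below them.

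Irf7 was the IRF gene that kept most of its relative level under actinomycin D. In KO cells it averaged 50.1% of its 0 h level at 4 h and 97.3% at 8 h, with changes of -0.87 ± 0.14 (limma adjusted p = 0.000133) and -0.05 ± 0.14 (adjusted p = 0.749). In WT cells it averaged 87.6% at 4 h and 178% at 8 h, with changes of -0.19 ± 0.14 (adjusted p = 0.25) and 0.83 ± 0.14 (adjusted p = 0.000131). Thus Irf7 rose in relative level over 8 h in WT cells, with both 8 h libraries above both 0 h libraries. From 4 to 8 h its TPM was multiplied by 1.94 in KO and 2.04 in WT cells, without overlap of libraries. The change over 8 h differed between genotypes by -0.88 ± 0.20 (KO minus WT, adjusted p = 0.0111). It was the only one of the 9 genes called in that test, where 19.9% of all tested genes were called, 2.63% as lower and 17.3% as higher. At 4 h the corresponding Irf7 difference was -0.68 ± 0.20 and did not pass (unadjusted p = 0.0058, adjusted p = 0.151). None of the 9 was called at 4 h by limma, where 0.35% of all tested genes were called, 0.296% as lower and 0.0538% as higher.

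Stat2 had the next highest remaining level at 8 h, although at 4 h Stat3 had kept more of its 0 h level in both genotypes. Relative to 0 h, its KO mean was 46.2% after 4 h and 70.8% after 8 h. Its WT mean was 52.1% after 4 h and 67.9% after 8 h. Its change over 8 h was -0.47 ± 0.13 in KO cells (limma adjusted p = 0.00504) and -0.54 ± 0.13 in WT cells (adjusted p = 0.00183). The genotypes differed in this by 0.07 ± 0.19 (adjusted p = 0.827). Between 4 and 8 h Stat2 TPM was multiplied by 1.53 in KO and 1.30 in WT cells, with both 8 h libraries higher in each. The KO call at 8 h was lost without KO replicate 1 at 8 h (-0.29, adjusted p = 0.0705).

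Stat3 declined in steps in both genotypes, to 57.5% and then 32.1% of its 0 h level at 4 and 8 h in KO cells, and to 53.9% and 27.4% in WT cells. Irf3 stood at 28.6% and 29.6% in KO cells and at 35.1% and 26.1% in WT cells. Irf8 was lost further, to 13.0% and 8.36% in KO cells and 16.5% and 10.8% in WT cells. Irf2, Irf5 and Irf9 changed over 8 h by -2.85, -2.47 and -2.29 in KO cells, and by -2.56, -2.45 and -2.21 in WT cells. Irf1 averaged 13.7% and 8.24% of its 0 h level in KO cells, and 20.7% and 24.5% in WT cells. Its 8 h change was -2.30 ± 0.18 in KO and -1.66 ± 0.18 in WT cells. That difference, -0.65 ± 0.26, had an unadjusted p of 0.0275 and an adjusted p of 0.10 in limma, and passed without KO replicate 1 at 8 h (-0.93, adjusted p = 0.0217).

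These time changes depend on the scaling. With median-ratio scaling the median change of all tested genes over 8 h was -0.03 in KO cells and -0.07 in WT cells, where TPM as deposited gave -1.16 and -1.40, so its estimates are relative to a typical transcript. On that scale Irf7 changed by 1.22 in KO cells and 2.49 in WT cells over 8 h, and Stat2 by 0.84 in KO cells and 1.09 in WT cells. Relative to a typical transcript Irf7 and Stat2 were therefore higher at 8 h in both genotypes, while relative to total TPM only Irf7 in WT cells was. Scaling to long-lived transcripts moved the estimates the other way. Over 8 h Irf7 then changed by -0.63 in KO and 0.39 in WT cells, and Stat2 by -1.05 in KO and -0.97 in WT cells.

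**Figure D4:**
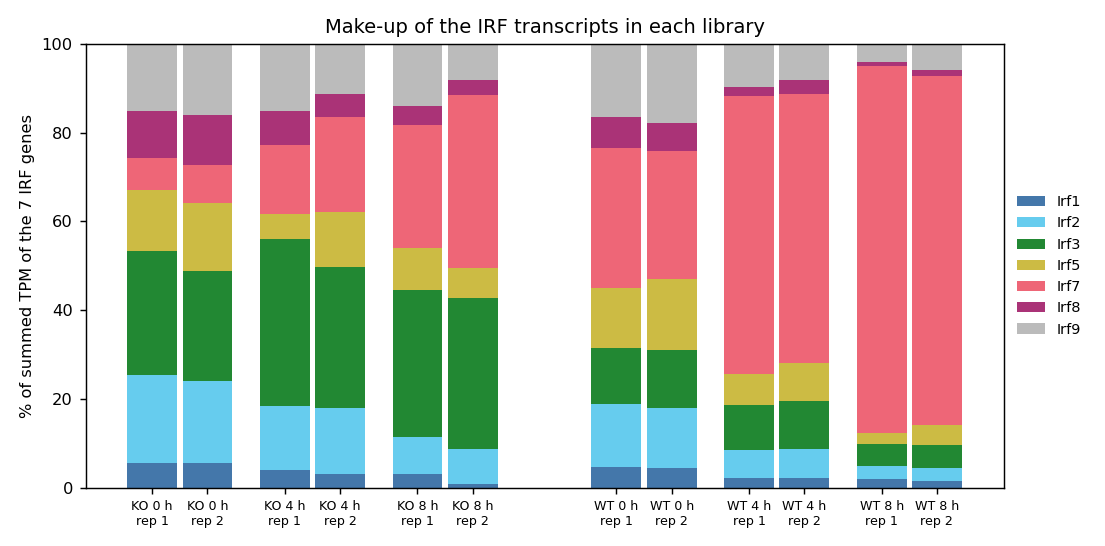
Share of the summed TPM of the 7 IRF genes taken by each, in every library, KO left of WT, by hours of actinomycin D. Irf7 takes 7.42% to 39.0% in KO libraries and 28.8% to 82.8% in WT libraries.

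The makeup of the IRF transcripts shifted with time in both genotypes, as shares of the summed TPM of the 7 IRF genes show. In KO cells Irf7 made up 7.42% and 8.59% before the drug, 15.7% and 21.3% after 4 h, and 27.6% and 39.0% after 8 h. In WT cells it made up 31.5% and 28.8% before the drug, 62.6% and 60.6% after 4 h, and 82.8% and 78.5% after 8 h. The share was thus higher at each later time in both genotypes, and in WT cells Irf7 was most of the IRF transcript pool from 4 h on. Irf3 made up 28.0% and 24.9% of the pool in KO libraries at 0 h, against 12.6% and 13.2% in WT libraries. The pool itself summed to 116 and 114 TPM in KO libraries, against 190 and 221 TPM in WT libraries at 0 h. Within the sum of Stat2 and Stat3, Stat2 was 21.2% and 23.4% in KO libraries, against 41.6% and 38.8% in WT libraries at 0 h.

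Features of the transcripts also differed among the 9 genes. The annotated 3′ UTR of Irf7 in GENCODE M21 was 42 nt long, at percentile 2.38 of the 10527 tested genes with a matched transcript, where the median was 915 nt. The Irf7 3′ UTR held no ATTTA, the core of AU-rich elements that can mark mRNA for decay. At 42 nt it leaves little room for a match, and the share of genes given next was not matched for length. Stat2 and Irf3 also held none, in 1476 and 502 nt, while 64.5% of matched genes held at least 1. Irf1 held 3 in 877 nt, Irf5, Irf8 and Stat3 held 2 each, and Irf2 and Irf9 held 1 each. With 9 genes these are descriptions, and a link between these features and the loss of the transcripts was not tested.

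The genes most like each of the 9 were ranked by Pearson r of log2(TPM + 1) over the 12 libraries, among 7677 genes with a mean of at least 5 TPM. The points share the time course and the genotypes, so r is high for many pairs and is a description only. Irf7 was most like Clec7a, Mpeg1 and Msr1, with r of 0.992, 0.986 and 0.985, which encode a beta-glucan receptor, a pore-forming protein of phagocytes and a scavenger receptor. Stat2 was most like Serpinb2, Tor3a and Grap, with r of 0.983, 0.978 and 0.965. Irf9 was most like Ttyh2, Dab2 and Tmem87b, and Irf5 most like Cpeb4, Tmem170b and Samd9l. Irf2 was closest to Id2, Ccr1 and Arid3a, Irf1 to Slc43a2, Slc7a11 and Atp2b1, and Irf3 to Fam207a, Runx1 and Surf6. Irf8 was closest to Poldip3, Abcg1 and Ube2h, and Stat3 to Timeless, Pop4 and Rbm14. For these 7 genes the highest r was 0.986 to 0.998.

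The rest of the pathway at 0 h is given by lists that were chosen with earlier results of these data known, and their counts stand beside 11.5% lower and 14.3% higher of all tested genes. Among other IRF and STAT genes, Stat6, which transmits IL-4, was lower in KO cells (-0.51 ± 0.09, limma adjusted p = 0.000983). Irf4 was also lower (-1.01 ± 0.15), at a mean of 0.970 TPM in KO and 2.98 TPM in WT cells. Stat4 was higher (0.86 ± 0.11, adjusted p = 0.000105). Stat5a and Stat5b, which transmit IL-3, differed by 0.33 and 0.16 (adjusted p = 0.0667 and 0.356). Of 14 tested partners and cofactors, 4 were lower and 1 higher, among them the myeloid factors Spi1 (-0.43) and Cebpa (0.65).

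**Figure D5:**
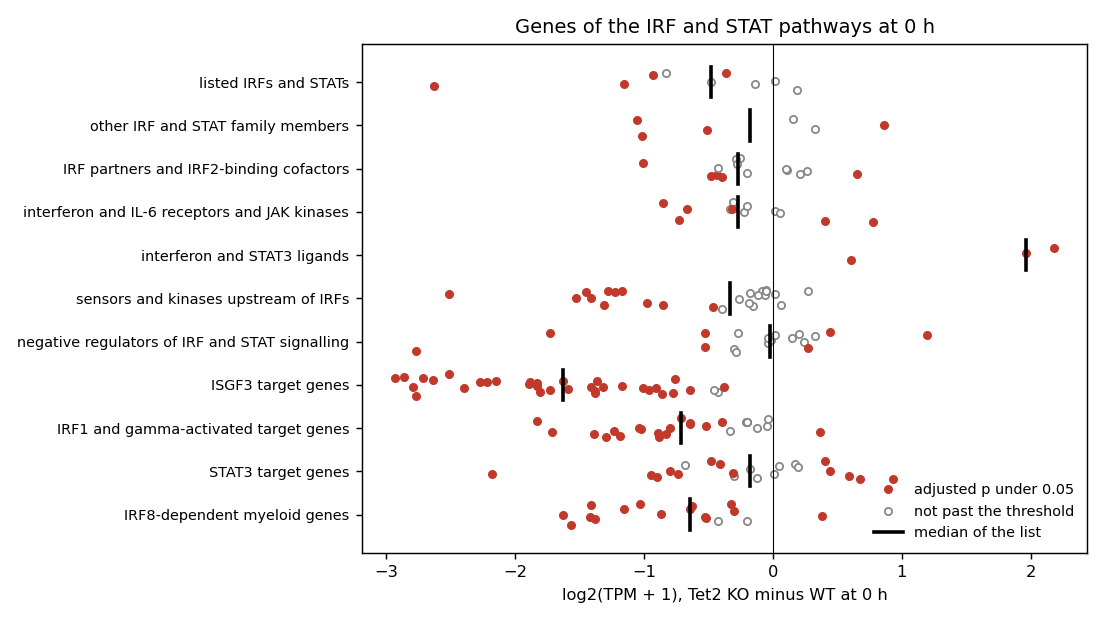
KO minus WT difference at 0 h in log2(TPM + 1) for each tested gene of the 9 and of 10 pathway lists, with a row per list. Filled circles have an adjusted p under 0.05 and bars are list medians. ISGF3 target genes have a median of -1.62 and none lies above 0, while receptors and regulators spread on both sides of 0.

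Among receptors and JAK kinases, 4 of 12 tested genes were lower and 2 higher, where 11.5% of all tested genes were lower and 14.3% higher, so the number higher was near that of all genes. The interferon gamma receptor chain Ifngr1 (-0.73 ± 0.10), the shared receptor chain Il10rb (-0.66 ± 0.09) and the IL-6 receptor Il6ra (-0.85 ± 0.13) fell in KO cells. The signal-transducing IL-6 receptor chain Il6st rose (0.78 ± 0.18, limma adjusted p = 0.0076). The kinase Tyk2 was lower (-0.31, adjusted p = 0.0277), while Jak1, Ifnar1 and Ifnar2, the last 2 being chains of the type I interferon receptor, had adjusted p of 0.894, 0.132 and 0.171. Of the 14 interferon and STAT3 ligands, 3 were tested and all 3 were higher. Il6 had 11.1 and 10.1 TPM in KO libraries, against 2.22 and 1.02 TPM in WT libraries, and Lif averaged 10.2 TPM in KO and 1.88 TPM in WT cells. Both activate STAT3, and their KO libraries were far above the WT libraries. The gene for interferon beta, Ifnb1, was listed at 0.41 TPM in 1 WT library at 0 h and at 0 in the other 11.

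Of 24 tested sensors and kinases upstream of IRFs, 11 were lower in KO cells and none was higher at 0 h. They included Zbp1 (-2.51 ± 0.20) and Ddx58 (-1.28 ± 0.11), sensors of nucleic acids, Tlr2 (-1.23 ± 0.10), and Unc93b1 (-1.17 ± 0.09), which carries Toll-like receptors to endosomes. Of 18 negative regulators, 4 were lower and 3 higher, where 11.5% of all tested genes were lower and 14.3% higher. Usp18, which binds STAT2 and damps type I interferon signalling, had 11.9 and 12.4 TPM in KO libraries, against 42.0 and 43.0 TPM in WT libraries (-1.73 ± 0.24, limma adjusted p = 0.000253). Socs1, an inhibitor of JAK kinases, moved the other way, with 53.6 and 46.9 TPM in KO libraries, against 19.5 and 23.3 TPM in WT libraries (1.2 ± 0.22, adjusted p = 0.00151). Both genes had groups far apart. Socs3, an inhibitor downstream of STAT3, differed by -0.30 (adjusted p = 0.143).

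The lists of target genes differed in how many passed the threshold. Of 35 tested ISGF3 targets, 33 were lower in KO cells and none was higher, with a median of -1.62 and the oligoadenylate synthetase genes Oasl2 (-2.86 ± 0.12) and Oas3 (-2.27 ± 0.10) among the lowest p. Of 25 IRF1 and gamma-activated targets, 18 were lower and 1 higher, with a median of -0.71. Gbp2, a guanylate-binding protein, differed by -1.83 ± 0.12, and the antigen presentation genes Cd74 and B2m by -1.04 and -0.80. Of 21 STAT3 targets, 8 were lower and 5 higher, with a median of -0.17. Lrg1, an acute-phase gene, was lower (-2.18 ± 0.21) and the cyclin gene Ccnd2 was higher (0.68 ± 0.08). Of 17 IRF8-dependent myeloid genes, 14 were lower and 1 higher, with a median of -0.64, although Irf8 itself was at 90.3% of its WT mean. Ctss, a lysosomal protease gene, differed by -1.63 ± 0.07 and Csf1r, the M-CSF receptor gene, by -1.41 ± 0.09. Of all tested genes 11.5% were lower and 14.3% higher, with a median of 0.06. The list of myeloid and progenitor markers, which shares genes with the last list, had 10 of 15 lower and 4 higher with a median of -0.43.

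By 8 h of actinomycin D, 31 of 35 ISGF3 targets were lower in KO than in WT cells and none was higher, with a median of -1.26 where that of all tested genes was 0.20, and 12.1% of all were lower and 37.3% higher. Stat4, Stat5a and Stat5b were higher in KO cells at 8 h (1.83, 0.98 and 0.56, limma adjusted p = 1.01e-07, 2.83e-05 and 0.00132). Of 21 STAT3 targets, 10 were lower and 6 higher, and of 17 IRF8-dependent genes 11 were lower and 1 higher. Socs1 differed by -0.02 (adjusted p = 0.944) at 8 h.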

How the data were processed

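RNA of 12 libraries of NRAS/AE9a cells was sequenced by the submitters (stranded mRNA libraries, per the labels' protocols). The authors deposited TPM per gene, 1 column per library, and STAR, RSEM and mm10 are named by the submitters' processing notes. Versions, annotation and strand setting of this processing are not given there. Each deposited TPM column has the same sum, which hides sequencing depth, and counting intervals were therefore not computed.

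The 9 genes were matched by symbol. The members and lists were chosen with earlier results of these data known. Of 24589 genes, 8737 were at 0 in every library and 11152 had at least 1 TPM in at least 2 libraries and were tested. Models were fitted to log2(TPM + 1) with limma 3.58.1 (R 4.3.3), after being tested on simulated data. They used the 12 libraries with a mean for each of the 6 groups, which leaves 6 residual degrees of freedom, and moderated the spread by empirical Bayes with a trend on expression. Adjusted p are two-sided Benjamini-Hochberg values over all tested genes with a threshold of 0.05, and errors are SE. Differences and changes are in log2(TPM + 1), where the pseudocount shrinks those of genes at low levels. Interaction terms tested whether changes over time differed between genotypes. Named besides the 9 genes were Tet2, up to 4 genes per list with the smallest p at 0 h, and a set of pathway genes fixed by name, some of which are not reported here. Bst2, Tcf4, Siglech, Ccr9 and Ifnb1, and the markers listed at 0, were named after their values were seen. Positions, exon overlaps and 3′ UTRs were taken from GENCODE M21 (GRCm38, which mm10 also represents), and the authors' annotation may differ. Alternatives were median-ratio scaling, scaling to 10 long-lived transcripts, no filter on low genes, a minimum mean of 5 TPM, a pseudocount of 0.1 or 0.5, no trend, a block on replicate number, fitting only the compared groups, and omitting single libraries.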

Additional observations from a re-analysis of the deposited data

Results flagged for a closer look

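The change of Irf7 over 8 h of actinomycin D differed between the genotypes by -0.88 on the log2(TPM + 1) scale (KO minus WT, limma interaction term, adjusted p = 0.0111). Its 8 h change was -0.05 ± 0.14 in KO cells and 0.83 ± 0.14 in WT cells, and in all 17 alternatives this difference kept its sign and its call, at -1.28 to -0.65 with adjusted p of 0.00322 to 0.0492.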

How the results depend on the processing

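Irf7 and Stat2 kept their KO against WT calls at 0, 4 and 8 h in every alternative run. Of 1116 estimates for the 9 genes, 1044 kept direction and side of the threshold, 20 lost the call, 13 gained it, 7 reversed, and 32 uncalled estimates moved. Of 51 calls, 36 held in every alternative. All 7 reversals came with median-ratio scaling, and the cause was not tested beyond the shift of the median of all genes. They were Irf7, Stat2 and Stat3 in WT cells at 4 h (0.80, 0.059 and 0.12), Stat2 in WT cells at 8 h (1.09), Stat3 in KO cells at 4 h (0.12), and Irf7 and Stat2 in KO cells at 8 h (1.22 and 0.84), all against 0 h. A change of sign was counted as a reversal where either estimate was called. Stat2 in WT cells and Stat3 in WT and KO cells at 4 h were near 0 and no longer called (limma adjusted p = 0.688, 0.344 and 0.339). With that scaling 1 gene was higher in WT cells at 4 h, 2 were higher and 4 lower in WT cells at 8 h, 2 were higher in KO cells at 8 h, and 3 had a lower 8 h change in KO cells. At 8 h 1 gene, Irf3, was higher in KO than in WT cells with a pseudocount of 0.1, and 1 with a mean of at least 5 TPM. Of all genes tested in those settings, 4321 and 3849 were called higher. Without 1 library, 2 to 4 genes were lower in KO cells at 0 h, with 2 when WT replicate 2 was left out, and 1 to 2 had a lower 8 h change in KO cells. Scaling to long-lived transcripts called Irf1 (-0.66) and Irf5 (-1.01) lower in KO than in WT cells at 0 h. Against 0 h it called Irf7 lower in KO cells at 8 h (-0.63) and in WT cells at 4 h (-0.61). Of its 10 scaling genes, 6 were themselves higher and 1 lower in KO cells at 0 h, against 14.3% and 11.5% of all tested genes. That shifts KO against WT estimates down on this scale.

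Deviations of libraries with the same replicate number correlated at -0.0834 to 0.0505 over 15 pairs of groups, none above 0.1. No shift shared by replicate number was thus seen, which cannot show whether the libraries were prepared in pairs. With the replicate block, 80 of 81 estimates kept their call and Irf5 at 0 h gained it (adjusted p = 0.0225).

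Over all tested genes, counts depended on the scaling. Those higher and lower were 4075 and 3931 with median-ratio scaling in WT cells at 4 h, against 755 and 7916, and 4201 and 4588 at 8 h, against 946 and 8944. In KO cells they were 4142 and 3845 at 4 h, against 544 and 7579, and 4319 and 4537 at 8 h, against 1064 and 8405. Long-lived scaling gave 46 and 250 higher at 4 and 8 h in KO cells, and 102 and 494 in WT cells. For KO against WT at 0 h, long-lived scaling gave 814 higher and 2366 lower, against 1593 and 1278. At 8 h it gave 1983 and 2738, against 4161 and 1350, where median-ratio scaling gave 2621 lower. The long-lived scaling genes were themselves more often higher in KO cells at both times, which shifts these estimates down. For the difference of the 8 h change, median-ratio scaling gave 999 higher and 879 lower and long-lived scaling 1042 and 516, against 1929 and 293, and leaving out 1 library gave 1050 to 2475 higher and 164 to 281 lower, with 1050 and 164 without KO replicate 2 at 0 h. Without 1 library, counts were as low as 835 higher and 846 lower at 0 h, and 1766 higher at 4 h, against 2782. For the 4 h change difference, other settings gave 3 to 442 higher and 18 to 132 lower, against 6 and 33, and leaving out 1 library gave 1 to 19 higher and 8 to 79 lower. Depth is unknown, so what it limits for low genes such as Irf1 and Irf8 after actinomycin D was not tested.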
